A study of Mus musculus with 4 samples.

Results

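The 48 genes described here encode the semaphorins, their plexin and neuropilin receptors, the ephrins and the Eph receptors. They were taken by symbol from the protein-coding genes of a table that the authors deposited, in which they make up 48 of 14116 protein-coding rows and 48 of 18378 rows in all. All 48 were also found among the 49585 genes of the count files. There were 20 semaphorins, 2 neuropilins, 9 plexins, 8 ephrins and 9 Eph receptors. RNA came from C2C12 cells, a myoblast line derived from C3H mice that fuses into myotubes when serum is withdrawn. In 2 libraries the cells carried a retrovirus for overexpression of C/EBPβ, a leucine zipper transcription factor, and in the other 2 libraries they carried the empty vector. Both groups went through 7 days of G418 (1200 µg/ml), were kept as pools of resistant cells, grew for 2 days and were then held in differentiation medium with horse serum for 2 days, so that the comparison sets differentiating cells with added C/EBPβ against differentiating cells with the vector alone.

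Semaphorins are extracellular or membrane-bound guidance proteins. Most act on plexins, whose cytoplasmic domain inactivates small GTPases of the Ras and Rap families, and the secreted class 3 semaphorins mostly need a neuropilin as the ligand-binding partner of a plexin. Ephrins are held in the membrane, the A-type by a lipid anchor and the B-type by a transmembrane segment, and they bind Eph receptor tyrosine kinases on neighbouring cells, so that both cells can receive a signal. In muscle these proteins are known for guiding motor axons and blood vessels and for contact between myoblasts.

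Libraries held 50493417 and 36461091 assigned fragments with C/EBPβ (replicates 1 and 2) and 45448661 and 51537847 with the empty vector. The guidance genes took 0.301% and 0.304% of these fragments with C/EBPβ, against 0.316% and 0.288% with the empty vector. Levels are given as CPM, fragments per 1e6 of the library total scaled by TMM, in the order replicate 1, replicate 2. Cebpb itself, which checks the labels, had 502 and 442 CPM in the C/EBPβ libraries and 42.7 and 41.3 CPM in the empty-vector libraries, an 11.2-fold difference. The labels leave unstated whether replicates were separate cultures. The p-values therefore cover the spread among these 4 libraries only, and that spread may be technical.

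Promoters of a few of the genes are shown because the overexpressed protein binds DNA and because myogenic factors bind the E-box. RefSeq windows on GRCm38.p6, each with 250 bases before and 50 bases after a transcription start, were matched for 42 of the 48 genes, 56 windows of 300 bases in all. Both strands were searched for TTGCNNAA, a C/EBP-type site, for CCAAT, and for CAGCTG, the E-box form preferred by MyoD,. The C/EBP-type letters stood in 3 of the 56 windows (5.36%), against 10.8% of 32851 windows of all genes. The CCAAT letters stood in 17 windows (30.4%, against 37.4% of all windows), and the E-box letters in 7 windows of 7 genes (12.5%, against 16.3%). The 3 windows with C/EBP-type letters follow, with those letters in capitals. They belong to Plxna3, a plexin, and to Sema4a and Sema4b, both membrane semaphorins, and the matches begin at positions -214, -209 and 2, counted from 0 at the start base. Sema4a has 4 windows and Sema4b has 2, and the windows not shown held no such letters.
Plxna3 (chrX:74328816-74329115, plus strand): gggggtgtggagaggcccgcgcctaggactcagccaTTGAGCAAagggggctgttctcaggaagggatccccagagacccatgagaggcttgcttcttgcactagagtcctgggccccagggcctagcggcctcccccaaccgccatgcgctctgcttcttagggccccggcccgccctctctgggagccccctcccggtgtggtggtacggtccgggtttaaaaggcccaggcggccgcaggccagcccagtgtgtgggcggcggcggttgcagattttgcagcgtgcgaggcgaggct
Sema4a (chr3:88455712-88456011, minus strand): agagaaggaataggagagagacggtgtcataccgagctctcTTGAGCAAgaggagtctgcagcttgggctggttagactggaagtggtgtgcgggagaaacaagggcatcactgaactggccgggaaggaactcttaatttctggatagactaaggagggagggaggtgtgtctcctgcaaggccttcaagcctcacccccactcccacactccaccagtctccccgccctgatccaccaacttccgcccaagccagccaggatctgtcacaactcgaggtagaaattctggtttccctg
Sema4b (chr7:80198338-80198637, plus strand): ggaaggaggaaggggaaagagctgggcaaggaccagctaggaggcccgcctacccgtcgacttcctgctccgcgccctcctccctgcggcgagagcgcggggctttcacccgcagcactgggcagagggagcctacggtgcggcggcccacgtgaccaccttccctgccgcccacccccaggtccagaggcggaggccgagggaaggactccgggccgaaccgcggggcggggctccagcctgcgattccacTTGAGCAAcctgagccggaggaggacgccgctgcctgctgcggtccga
Plxna3 and Sema4a were higher and Sema4b was lower in the C/EBPβ libraries, with log2 fold changes of 0.39, 1.63 and -0.43. Plxnb3, another plexin, was the gene with 2 E-box matches, at positions -152 and 5, which are in capitals in its window. Its log2 fold change was -1.44.
Plxnb3 (chrX:73756853-73757152, plus strand): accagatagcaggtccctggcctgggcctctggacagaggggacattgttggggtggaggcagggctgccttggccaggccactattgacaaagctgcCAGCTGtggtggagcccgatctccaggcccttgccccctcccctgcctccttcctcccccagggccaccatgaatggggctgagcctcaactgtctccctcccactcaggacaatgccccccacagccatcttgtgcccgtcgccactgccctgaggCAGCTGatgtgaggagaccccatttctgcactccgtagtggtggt
The window of Epha1, the Eph receptor with the largest rise of all tested guidance genes, held none of the 3 motifs and therefore has no capitals.
Epha1 (chr6:42373219-42373518, minus strand): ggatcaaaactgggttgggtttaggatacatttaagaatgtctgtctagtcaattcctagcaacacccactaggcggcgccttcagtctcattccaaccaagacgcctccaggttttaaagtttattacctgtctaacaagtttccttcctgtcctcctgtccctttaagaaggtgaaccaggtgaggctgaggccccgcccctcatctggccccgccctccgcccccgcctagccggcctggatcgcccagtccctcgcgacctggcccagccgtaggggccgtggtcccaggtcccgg
A match of letters describes the window and shows no binding.

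Of the 48 genes, 45 had enough fragments to be tested. In edgeR's quasi-likelihood test with Benjamini-Hochberg adjustment over all 15886 genes tested, 27 of these 45 (60.0%) passed an adjusted p of 0.05, against 43.2% of all genes. Of the 27, 11 rose with C/EBPβ (24.4% of the 45, against 22.3% of all genes) and 16 fell (35.6%, against 20.9%). The median log2 fold change was -0.17, against 0.01 over all genes, and the median absolute log2 fold change was 0.48, against 0.33. The log2 fold changes ran from -2.54 for Sema4d to 2.29 for Epha1. Of the 45, 12 passed with a change of at least 2-fold, 6 in each direction. Over all 15886 genes tested, 1447 did so upward and 1192 downward. For 41 of the 45 genes both C/EBPβ libraries lay on the same side of both empty-vector libraries, as they did for 75.1% of all tested genes. Among ligands, 5 of 27 rose (18.5%, against 22.3% of all genes) and 11 fell (40.7%, against 20.9%), with a median of -0.28. Among receptors, 6 of 18 rose (33.3%) and 5 fell (27.8%), with a median of 0.06. The numbers that passed lean on 1 library: without empty-vector replicate 2 fewer guidance genes rose and fewer fell, as was so over all genes.

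**Figure D1:**
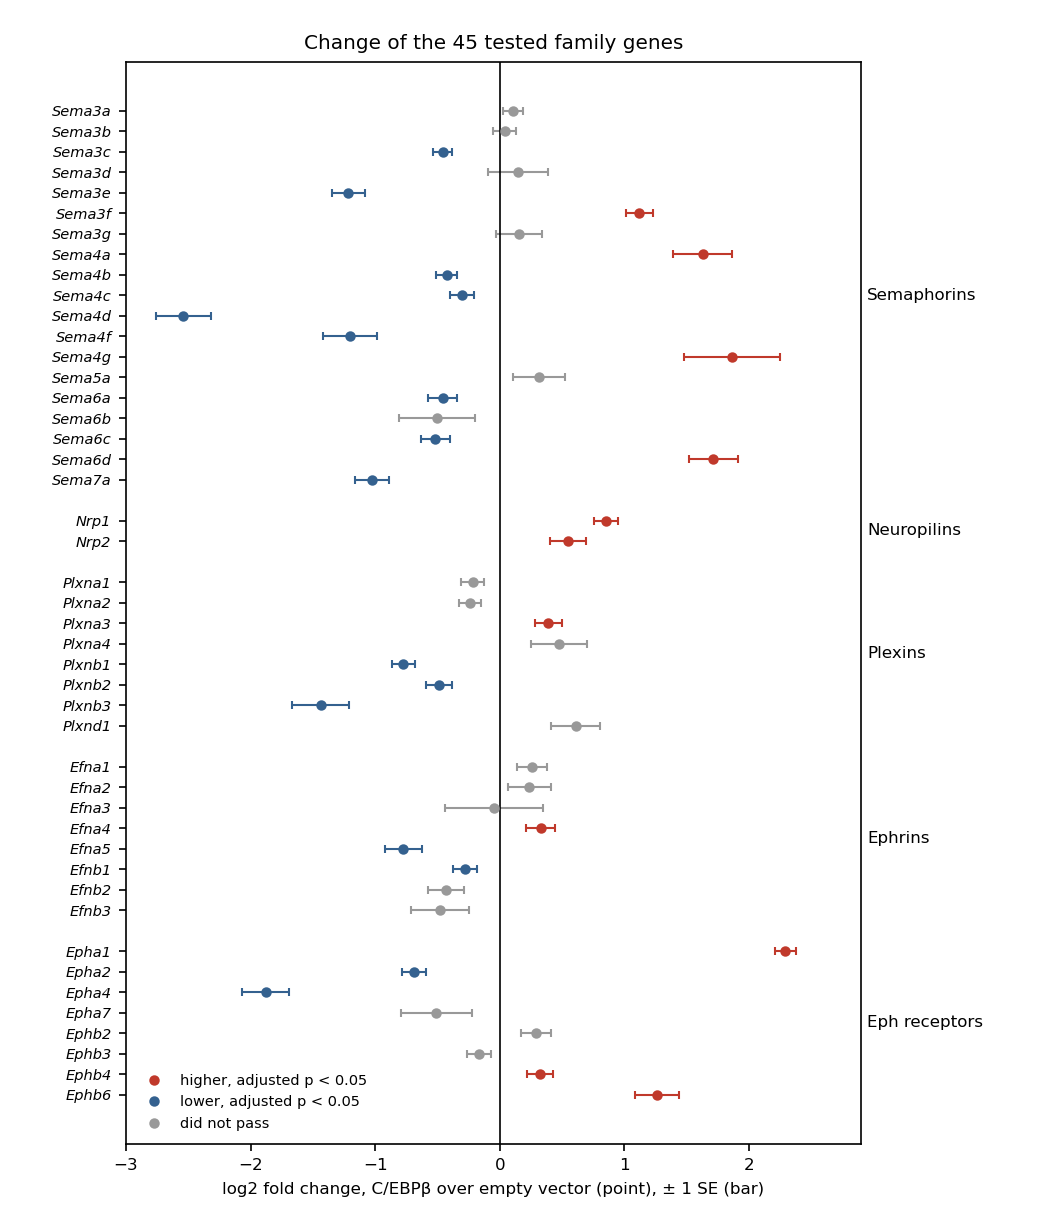
Log2 fold change of C/EBPβ over empty vector for the 45 tested genes, by family from top to bottom, with bars of 1 standard error (SE). Red points rose, blue points fell and grey points did not pass an adjusted p of 0.05. The 3 B-type plexins lie left of 0, both neuropilins lie right of 0, and Epha1 and Sema4d lie at the extremes of 2.29 and -2.54.

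Markers of muscle and of other cells moved between the groups, and their part in the results below was not tested. Of 11 skeletal muscle markers 10 fell and 1 rose, against 20.9% and 22.3% of all genes. The falls of Myh3, Ckm and Tnnt3 lost their calls without either empty-vector library. The summed level of the 11 markers was 5765 and 8724 CPM with C/EBPβ, against 19769 and 21283 CPM with the empty vector. Replicate 2 of the C/EBPβ group was thus nearer to the empty-vector libraries than replicate 1. The most abundant of these markers were Myh3, the embryonic myosin heavy chain, with 857 and 1928 against 6622 and 7517 CPM, and Des, the muscle intermediate filament protein, with 1481 and 1782 against 3043 and 3019 CPM. Fibroblast markers summed to 14233 and 14059 CPM with C/EBPβ, against 5573 and 4504 CPM with the empty vector. Of the 9 tested from 10 listed, 5 rose and 1 fell, and Tcf21 was at 0. Most of that sum was Col3a1, a fibrillar collagen, at 12188 and 12136 against 3979 and 3127 CPM, and the next was Gsn, an actin-severing protein that did not pass, at 884 and 905 against 780.2 and 630.1 CPM.

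Markers of the other cell types summed to less than those of muscle and fibroblasts in each library. Endothelial markers summed to 3.46 and 3.14 CPM with C/EBPβ and to 3.23 and 3.52 CPM with the empty vector, with Emcn and Tie1 at 0 in all 4 libraries. Of the 4 tested from 10 listed, 1 rose and 2 fell, and of these calls those of Egfl7 and Tek did not hold throughout the alternatives. The 2 most abundant were Vwf, with 1.19 and 1.72 against 1.35 and 1.15 CPM, and Egfl7, with 1.32 and 0.711 against 0.449 and 0.474 CPM. Neuron markers summed to 38.5 and 38.6 CPM, against 119 and 127 CPM, and 4 of the 5 tested from 9 listed fell. Most of this was Stmn2, at 15.2 and 15.7 against 55.4 and 58.8 CPM, and Tubb3, at 17.6 and 15.1 against 37.8 and 41.7 CPM, both proteins of the microtubule system, while Elavl4, Rbfox3 and Snap25 were at 0. Schwann cell markers summed to 49.7 and 93.1 CPM, against 341 and 351 CPM, with 1 of 4 tested from 7 listed higher and 1 lower, and Foxd3 at 0. Of this sum 44.8 and 88.1 CPM, against 338 and 348 CPM, was Erbb3. Macrophage markers summed to 44.5 and 41.2 CPM, against 8.81 and 7.87 CPM, mostly Lyz2 (28.4 and 26.1, against 0.135 and 0.0791 CPM) and Cd14 (11.8 and 10.9, against 5.38 and 4.74 CPM), with 3 of 5 tested from 11 listed higher and 1 lower. The lower one, Itgam, and 1 of the higher ones, Csf1r, lost their calls without either empty-vector library and in DESeq2. Itgam also lost its call without C/EBPβ replicate 1, and Csf1r without C/EBPβ replicate 2. Adgre1, C1qa, C1qb, Fcgr1 and Tyrobp were at 0. In RNA from whole cultures, fewer cells of a type and less RNA per cell cannot be told apart.

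Semaphorins, the largest family, fell more often than they rose: 9 of 19 tested fell (47.4%, against 20.9% of all genes), 4 rose (21.1%, against 22.3%) and 6 did not pass. Their summed level was 877 and 997 CPM with C/EBPβ and 1146 and 1119 CPM with the empty vector, so both C/EBPβ libraries were lower. Levels were also compared as FPKM, here CPM per kilobase of a gene's merged exon length. Sema3b was the most abundant semaphorin by FPKM in both groups, with means of 29.6 with C/EBPβ and 28.8 with the empty vector. It had 148 and 135 CPM with C/EBPβ and 144 and 131 CPM with the empty vector. The groups overlapped and the difference did not pass (adjusted p = 0.765), the log2 fold change being 0.04 with an SE of 0.09.

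Among the 7 secreted class 3 semaphorins, 1 rose (14.3%, against 22.3% of all genes), 2 fell (28.6%, against 20.9%) and 4 did not pass. Sema3f, a ligand bound through neuropilin-2, rose to 24.2 and 23.0 CPM with C/EBPβ, against 11.5 and 10.2 CPM with the empty vector. The 2.17-fold difference (log2 fold change 1.12, SE 0.11, adjusted p = 0.000177) was far wider than the gap between replicates. Sema3e, unusual in that it can bind plexin-D1 with no neuropilin, fell to 58.5 and 77.3 CPM, against 162 and 153 CPM. Its log2 fold change was -1.22 (SE 0.13, adjusted p = 0.000541), and the higher of the C/EBPβ libraries was still below both empty-vector libraries. Sema3c, a ligand of both neuropilins, fell to 96.1 and 100.9 CPM, against 132 and 138 CPM (log2 fold change -0.46, SE 0.08, adjusted p = 0.00259). Sema3a, the founding repellent ligand of neuropilin-1 that satellite cells also secrete, was at 61.0 and 66.3 CPM, against 59.4 and 58.8 CPM, and did not pass (log2 fold change 0.11, adjusted p = 0.298). Sema3g, another ligand of neuropilin-2, averaged 2.73 CPM, against 2.46 CPM, and did not pass either.

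Sema3d was the class 3 gene whose C/EBPβ libraries disagreed most. It had 113 and 186 CPM with C/EBPβ, one below and one above the empty-vector libraries at 135 and 134 CPM, and its log2 fold change of 0.15 (SE 0.24) did not pass. Without C/EBPβ replicate 1 it passed as higher (log2 fold change 0.47, adjusted p = 0.00016), and without C/EBPβ replicate 2 as lower (-0.27, adjusted p = 0.0373).

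All 6 membrane-bound class 4 semaphorins passed, 2 higher (33.3%, against 22.3% of all genes) and 4 lower (66.7%, against 20.9%). Sema4d, also known as CD100 and a ligand of plexin-B1, had the largest fall of the tested guidance genes. It had 0.995 and 1.39 CPM with C/EBPβ (52 and 51 fragments), against 7.49 and 6.21 CPM with the empty vector (334 and 314 fragments). That is 5.73-fold lower (log2 fold change -2.54, SE 0.22, adjusted p = 0.000103), with no overlap between the groups. Sema4d (ENSMUSG00000021451) lies on chromosome 13 from 51701246 to 51793747 on the minus strand of GRCm38. Sema4f, a class 4 member found at synapses, fell to 1.86 and 1.37 CPM, against 3.59 and 3.91 CPM (log2 fold change -1.20, SE 0.21).

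The more abundant class 4 members moved less. Sema4b fell to 30.9 and 32.3 CPM, against 44.4 and 40.5 CPM (log2 fold change -0.43, SE 0.09, adjusted p = 0.00529). Sema4c, a ligand of plexin-B2, was at 109.6 and 93.8 CPM, against 130.1 and 121 CPM (log2 fold change -0.31, SE 0.10, adjusted p = 0.0349). This fall lost its call without empty-vector replicate 1 (adjusted p = 0.141) or replicate 2 (0.0730), without C/EBPβ replicate 2 (0.109) and with unscaled library sizes (0.0877). The class 4 genes that rose were both scarce. Sema4a, known from immune cells, had 3.64 and 2.76 CPM, against 0.964 and 1.11 CPM, a 3.09-fold difference (log2 fold change 1.63, SE 0.24, adjusted p = 0.00118). Sema4g, another ligand of plexin-B2, had 2.47 and 1.31 CPM, against 0.650 and 0.415 CPM (log2 fold change 1.86, SE 0.39, adjusted p = 0.00676). Its C/EBPβ libraries lay further apart than those of Sema4a, and without empty-vector replicate 2 its adjusted p was 0.0608.

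**Figure D2:**
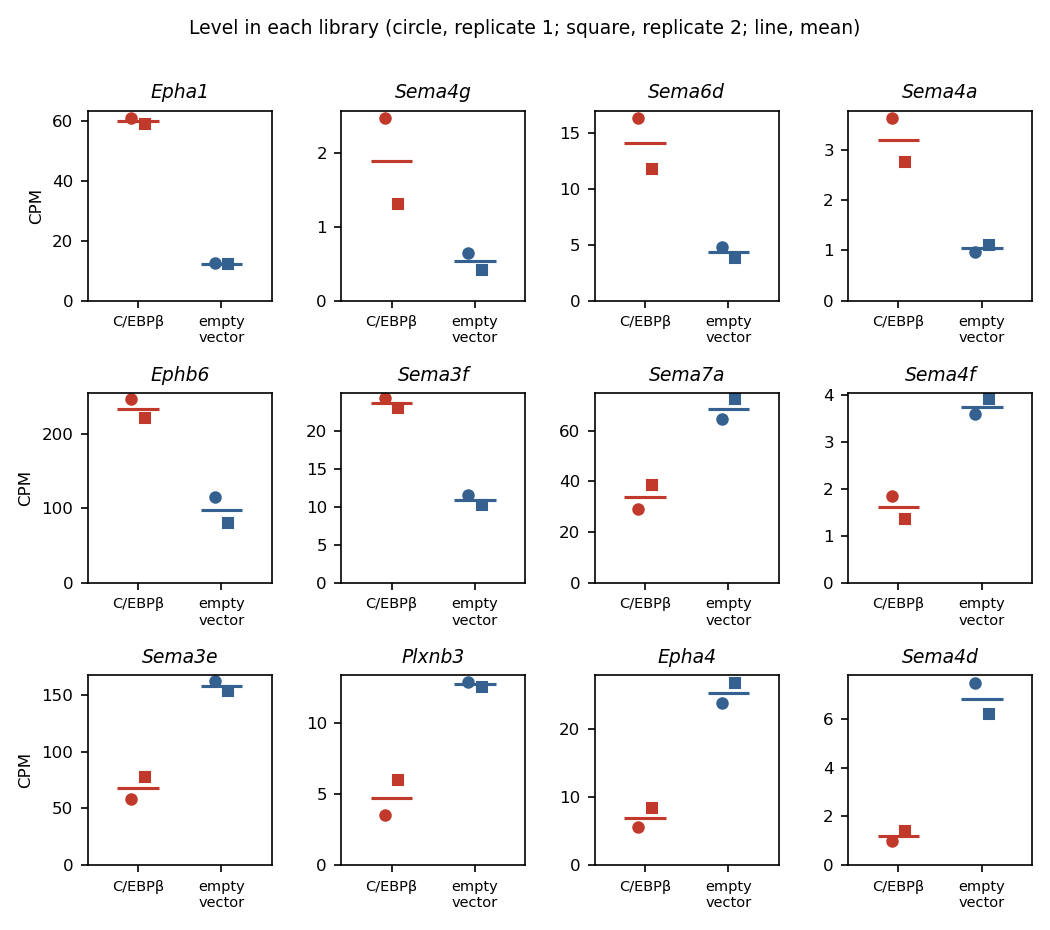
CPM in each library for the 12 guidance genes that changed at least 2-fold, C/EBPβ at left in red and empty vector at right in blue, with a linear axis from 0 in each panel and a line at the mean. The 2 groups do not overlap in any panel. Epha1 shows close replicates at 61.0 and 59.2 against 12.5 and 12.1 CPM, while the 2 C/EBPβ libraries of Sema4g, at 2.47 and 1.31 CPM, lie apart.

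Class 6 semaphorins are transmembrane ligands of A-type plexins. Sema6d, which binds plexin-A1, rose to 16.4 and 11.8 CPM with C/EBPβ, against 4.8 and 3.83 CPM with the empty vector (3.27-fold, log2 fold change 1.71, SE 0.20, adjusted p = 0.0005). The other class 6 genes had log2 fold changes below 0. Sema6a, a ligand of plexin-A2 and plexin-A4, fell to 93.6 and 116 CPM, against 138 and 149.8 CPM (log2 fold change -0.46, SE 0.11, adjusted p = 0.0142, and 0.0957 without empty-vector replicate 2). Sema6c fell to 32.8 and 28.7 CPM, against 48.3 and 39.9 CPM (log2 fold change -0.52, SE 0.12, adjusted p = 0.0089). Sema6b, at a mean of 1.05 against 1.53 CPM, did not pass, but it did without C/EBPβ replicate 1 (log2 fold change -1.04, adjusted p = 0.0169).

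Sema7a, the lipid-anchored semaphorin that binds plexin-C1 and integrins with the β1 chain, fell to 29.0 and 38.5 CPM with C/EBPβ, against 64.4 and 72.6 CPM with the empty vector. This was 2.03-fold lower (log2 fold change -1.03, SE 0.14, adjusted p = 0.00174). Of the class 5 semaphorins, which carry thrombospondin repeats, Sema5a had 50.6 and 77.6 CPM, against 53.1 and 49.8 CPM. One C/EBPβ library lay within the empty-vector range and the other above it, and the difference did not pass, although it did without C/EBPβ replicate 1 (log2 fold change 0.60, adjusted p = 9.03e-07). Sema5b had 14 fragments over both C/EBPβ libraries and 3 over both empty-vector libraries and was not tested. Its ratio after scaling for depth was 5.0, with a 95% exact interval of 1.4 to 27.1 that covers counting error only.

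Both neuropilins rose. Nrp1, the receptor for Sema3a and a co-receptor for VEGF, had 89.9 and 86.3 CPM with C/EBPβ and 53.3 and 44.4 CPM with the empty vector (1.80-fold, log2 fold change 0.85, SE 0.10, adjusted p = 0.000405). Nrp2, the receptor for Sema3f, had 295.8 and 290.3 CPM, against 232 and 169 CPM (1.46-fold, log2 fold change 0.55, SE 0.15, adjusted p = 0.0215). The empty-vector libraries of Nrp2 lay much further apart than the C/EBPβ libraries, and without empty-vector replicate 2 the log2 fold change was 0.34 with an adjusted p of 0.0910. Summed, the neuropilins stood at 386 and 377 CPM, against 285 and 214 CPM.

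Of the 8 plexins tested, 1 rose (12.5%, against 22.3% of all genes), 3 fell (37.5%, against 20.9%) and 4 did not pass. The 3 that fell were the B-type plexins. Plxnb2, the most abundant plexin, fell to 359 and 387 CPM with C/EBPβ, against 544 and 501 CPM with the empty vector (log2 fold change -0.49, SE 0.10, adjusted p = 0.00651). Plxnb1, the receptor of Sema4d, fell to 20.2 and 21.3 CPM, against 36.8 and 34.1 CPM (log2 fold change -0.78, SE 0.09, adjusted p = 0.00046). Plxnb3 fell to 3.54 and 5.99 CPM, against 12.9 and 12.6 CPM, which was 2.68-fold lower (log2 fold change -1.44, SE 0.23, adjusted p = 0.00314). In all 3 the groups stayed apart, and of the C/EBPβ libraries replicate 2 lay closer to the empty-vector libraries.

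The A-type plexins are the signalling partners of neuropilins and the receptors of class 6 semaphorins. Plxna3 rose to 89.3 and 90.8 CPM, against 76.5 and 60.8 CPM (log2 fold change 0.39, SE 0.11, adjusted p = 0.024, and 0.127 without empty-vector replicate 2). Plxna1 and Plxna2 had means of 226 and 69.8 CPM with C/EBPβ and of 263 and 82.5 CPM with the empty vector, and with log2 fold changes of -0.22 and -0.24 neither passed, although Plxna2 did without C/EBPβ replicate 1 (adjusted p = 0.0192). Plxna4, at a mean of 1.75 against 1.26 CPM, did not pass. Plxnd1, the receptor of Sema3e, had 178 and 156 CPM, against 131 and 88.3 CPM. Its libraries did not overlap, but the empty-vector pair was far apart and the log2 fold change of 0.61 (SE 0.19) missed the threshold at an adjusted p of 0.0524. Plxnd1 passed in DESeq2 (adjusted p = 0.00445) and in limma-voom (0.0219), but not with median-ratio scaling. It passed without empty-vector replicate 1, C/EBPβ replicate 1 or C/EBPβ replicate 2, with log2 fold changes of 0.92, 0.51 and 0.68. Without empty-vector replicate 2 it did not pass. Plxnc1, the plexin that binds Sema7a, had 20 fragments over the C/EBPβ libraries and 8 over the empty-vector libraries and was not tested (ratio 2.68, 95% exact interval 1.13 to 7.03).

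By FPKM, the order of the plexins was led by Plxnb2 at a mean of 52.4 with C/EBPβ and 73.4 with the empty vector. Plxna1 came next at 25.01 and 29.1, and Plxnd1 followed at 22.9 and 15.01. Sema4c, the second semaphorin by this measure, stood at 22.1 and 27.4.

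**Figure D3:**
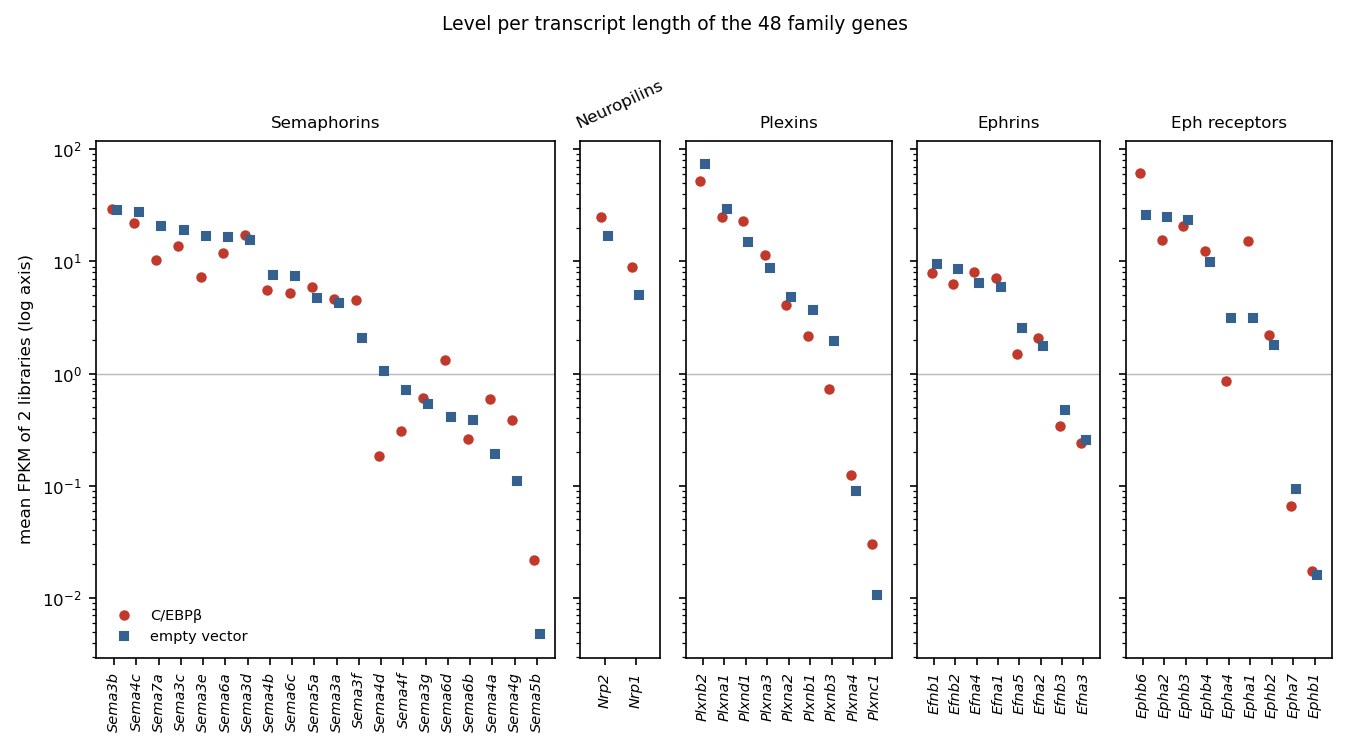
Mean FPKM of the 2 libraries of each group on a log axis for all 48 genes, grouped by family and ordered by the empty-vector level within each, with C/EBPβ as red circles and empty vector as blue squares and a grey line at 1 FPKM. Plxnb2 and Ephb6 lead the families at 52.4 and 61.9 FPKM with C/EBPβ, and Ephb1, Plxnc1 and Sema5b lie lowest in their families.

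Ephrins had the smallest median absolute log2 fold change of the 5 families, 0.30. Of 8 tested, 1 rose (12.5%, against 22.3% of all genes), 2 fell (25%, against 20.9%) and 5 did not pass, and none changed 2-fold. Efnb1 was the most abundant ephrin by FPKM in the empty-vector group (mean 7.87 with C/EBPβ, 9.54 with the empty vector). It fell to 26.9 and 27.4 CPM, against 31.0 and 34.8 CPM (log2 fold change -0.28, SE 0.09, adjusted p = 0.0418). Efna5, a lipid-anchored ephrin, fell to a mean of 6.06 CPM, against 10.3 CPM (log2 fold change -0.77, SE 0.15, adjusted p = 0.00401). Efna4 rose to a mean of 12.8 CPM, against 10.2 CPM (log2 fold change 0.33, SE 0.11, adjusted p = 0.0481). Neither Efnb1 nor Efna4 kept its call without empty-vector replicate 2 (adjusted p = 0.252 and 0.194) or without C/EBPβ replicate 1 (0.101 and 0.239), and neither did in DESeq2 (0.0661 and 0.0997). Efna4 also lost it without empty-vector replicate 1 (0.129) and without C/EBPβ replicate 2 (0.0613). With C/EBPβ, Efna4 had the highest mean FPKM of the family, 7.98 against 6.37 with the empty vector.

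Efnb2, the ephrin partner of the EphB4 receptor in vessel formation, had 39.9 and 46.5 CPM with C/EBPβ and 50.3 and 66.2 CPM with the empty vector. It missed the threshold (log2 fold change -0.43, adjusted p = 0.0515) but passed in DESeq2 (0.0244) and limma-voom (0.0401). It also passed without empty-vector replicate 1, C/EBPβ replicate 1 or C/EBPβ replicate 2, with log2 fold changes of -0.62, -0.32 and -0.57. Efnb2 did not pass without empty-vector replicate 2, with unscaled library sizes or with a filter at 1 CPM. The remaining ephrins did not pass. Efna1, a main ligand of EphA2, averaged 13.0 CPM, against 10.9 CPM, and Efna2 averaged 4.44 CPM, against 3.78 CPM. Efnb3 averaged 1.07 CPM, against 1.504 CPM. Efna3, at 0.765 and 0.410 against 0.471 and 0.771 CPM, was the ephrin whose groups overlapped.

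The Eph receptors moved in both directions and by the widest margins of the receptors. Of 8 tested, 3 rose (37.5%, against 22.3% of all genes), 2 fell (25%, against 20.9%) and 3 did not pass. The Eph receptors summed to 592 and 589 CPM with C/EBPβ, against 502 and 436 CPM with the empty vector. Epha1, the first Eph receptor to be cloned, rose to 61.0 and 59.2 CPM, against 12.5 and 12.1 CPM. The 4.89-fold difference (log2 fold change 2.29, SE 0.08, adjusted p = 2.03e-06) stood beside replicate gaps of under 2 CPM in each group. Epha1 (ENSMUSG00000029859) lies on chromosome 6 from 42358487 to 42373268 on the minus strand of GRCm38, and 2.60% of its 50-base windows recur in transcripts of another annotated gene. Epha4, which binds ephrins of both types and guides motor axons in the limb, fell to 5.61 and 8.34 CPM, against 23.9 and 26.9 CPM. This was 3.64-fold lower (log2 fold change -1.88, SE 0.19, adjusted p = 0.000431).

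Epha2, a receptor of ephrin-A1, fell to 66.5 and 78.4 CPM, against 119 and 114 CPM (log2 fold change -0.69, SE 0.10, adjusted p = 0.00096). Epha7 was scarce, at a mean of 0.656 CPM against 0.919 CPM, and did not pass.

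B-type Eph receptors rose or did not pass. Ephb6, which lacks kinase activity, had 245.9 and 221 CPM with C/EBPβ, against 114 and 80.2 CPM with the empty vector (2.40-fold, log2 fold change 1.26, SE 0.17, adjusted p = 0.0022). Its mean FPKM was 61.9 with C/EBPβ and 25.8 with the empty vector, so that it ranked first of the 48 genes with C/EBPβ, whereas Plxnb2 ranked first with the empty vector. The empty-vector libraries of Ephb6 differed by more than the C/EBPβ libraries in proportion, yet no alternative ended its call. Ephb4, the receptor of ephrin-B2, rose to 59.5 and 55.3 CPM, against 50.7 and 41.1 CPM (log2 fold change 0.32, SE 0.11, adjusted p = 0.0437). That call ended without empty-vector replicate 2 (adjusted p = 0.242), without C/EBPβ replicate 1 (0.0513) and in DESeq2 (0.0689). Ephb3, at a mean of 131 CPM against 148 CPM, and Ephb2, at 27.7 CPM against 22.7 CPM, did not pass. Ephb3 passed without C/EBPβ replicate 2 (adjusted p = 0.0488) and Ephb2 without empty-vector replicate 1 (0.0204). Ephb1 had 11 fragments over each pair of libraries (ratio 1.07, 95% exact interval 0.421 to 2.73) and was not tested. A further 5 Eph receptor genes in the count files lie outside the 48. Epha3 had 3 fragments over the C/EBPβ libraries and 6 over the empty-vector libraries, Epha8 and Epha10 had 1 each over all libraries, and Epha5 and Epha6 were at 0.

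**Figure D4:**
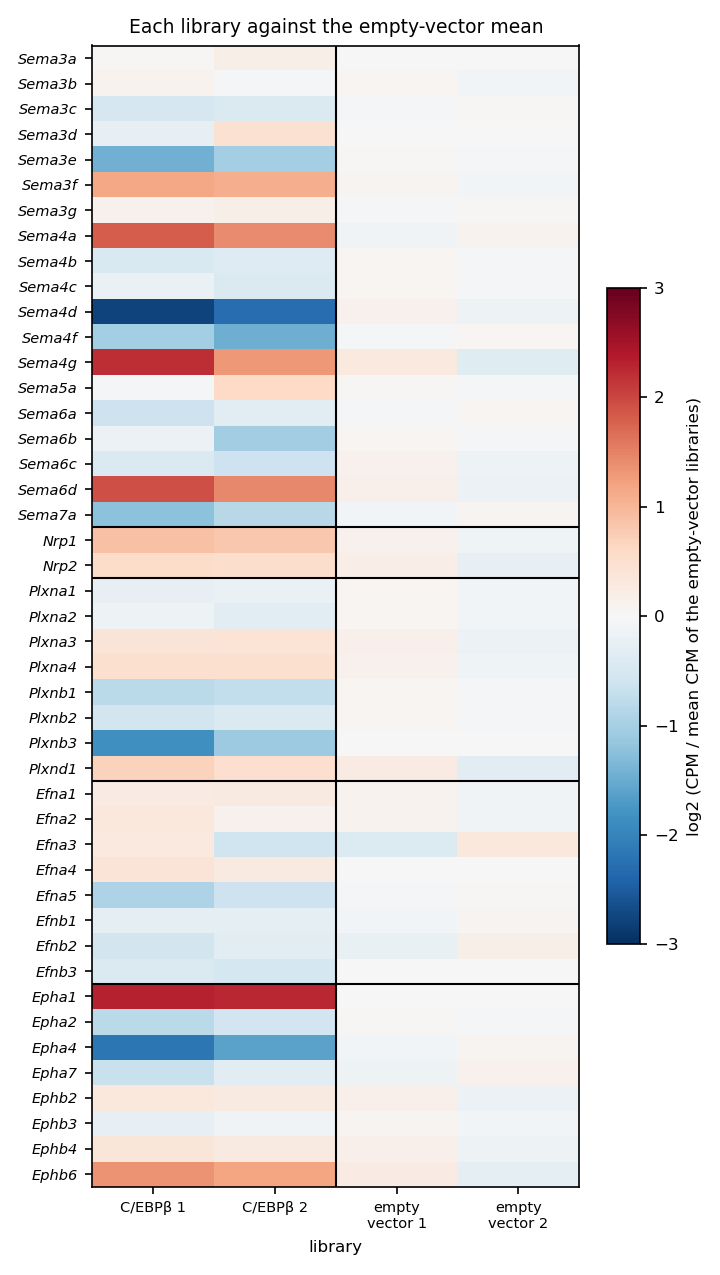
Log2 of CPM in each library over the mean CPM of the empty-vector libraries for the 45 tested genes, C/EBPβ libraries at left and empty-vector libraries at right, in blocks by family (semaphorins, neuropilins, plexins, ephrins, Eph receptors), with red above and blue below the empty-vector mean. Sema3d and Efna3 show opposite colours in the 2 C/EBPβ libraries, and Epha1 and Sema4d show the same strong colour in both.

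Known ligand and receptor pairs, of which only some are given here, showed several combinations. Sema4d and its receptor Plxnb1 both fell (log2 fold changes -2.54 and -0.78). Sema3f and its receptor Nrp2 both rose, with 1.12 and 0.55. Of the other neuropilin-2 ligands named above, Sema3c fell (-0.46) and Sema3g did not pass (0.15). Sema3e fell by 1.22 on the log2 scale while its receptor Plxnd1 stood at 0.61 and did not pass. Sema7a fell by 1.03 on the log2 scale, its plexin was nearly undetected, and Itga1, the integrin α1 chain that pairs with β1, rose to 24.0 and 18.2 CPM, against 0.763 and 0.494 CPM. Itgb1, the β1 chain itself, fell to 1075 and 1226 CPM, against 1518 and 1536 CPM (log2 fold change -0.41, adjusted p = 0.0269), a call lost without either empty-vector library (0.109 and 0.138) and without C/EBPβ replicate 1 (0.0748). Epha2 fell by 0.69 on the log2 scale, while its ligand Efna1 was at 0.26 and did not pass.

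Guidance genes that lie close together in the genome did not all move alike. Ephb6 and Epha1 are 738.0 kb apart on chromosome 6 with 5 listed protein-coding genes between them, and both rose. Sema3d, Sema3a and Sema3e follow each other on chromosome 5, with gaps of 536.5 and 422.7 kb and 0 listed protein-coding genes between them, and only Sema3e of these 3 passed. Sema3b and Sema3f lie 72.3 kb apart on chromosome 9, and only Sema3f passed. Efna1, Efna3 and Efna4 lie within gaps of 32.8 and 10.4 kb on chromosome 3, and their log2 fold changes were 0.26, -0.05 and 0.33, of which only that of Efna4 passed.

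The wider pathways were described with lists that hold none of the 48 genes. The context lists share 4 genes with each other, so their counts are not separate. Fyn, which fell, and Rasa1 stand in both the semaphorin and the Eph and ephrin effector lists. Erbb3, which fell, and Kdr stand in the semaphorin list and in a marker list. Of 29 tested semaphorin co-receptors and effectors (35 listed), 7 rose and 8 fell, against 22.3% and 20.9% of all genes, and the median log2 fold change was 0.00. The number that fell was 5 without empty-vector replicate 1 and 3 without empty-vector replicate 2. Itga1 had the smallest p of those that rose (33.6-fold, log2 fold change 5.08, adjusted p = 8.70e-06), followed by Rnd3, a small GTPase that acts on the actin cytoskeleton, at 189.7 and 189.9 against 84.4 and 87.8 CPM. Erbb2, a receptor kinase that associates with B-type plexins, and Fyn, a kinase of class 3 semaphorin signalling, had the smallest p of those that fell. Erbb2 was at 64.6 and 80.3 CPM, against 148 and 141 CPM, and Fyn at 177 and 208 CPM, against 340.4 and 364 CPM. Of 30 tested Eph and ephrin effectors (35 listed), 4 rose and 11 fell, against 22.3% and 20.9% of all genes, with a median of -0.17. Vav3, an exchange factor for small GTPases, rose to 28.6 and 30.6 CPM with C/EBPβ, against 13.8 and 12.1 CPM with the empty vector. Its relative Vav2 fell to 45.8 and 46.5 CPM, against 77.7 and 72.9 CPM. Kalrn, an exchange factor for Rac, rose to 37.1 and 33.7 CPM, against 25.8 and 25.7 CPM, and Pdlim1, a cytoskeletal adaptor, fell to 32.0 and 36.6 CPM, against 92.1 and 99.2 CPM.

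Genes of the other guidance systems, netrins, Slits and RGM proteins, passed in both directions as well. The list used for them also held receptors and effectors, and Draxin, Dscam, Flrt1, Flrt2, Flrt3 and Vasn. Of 22 tested (30 listed), 7 rose and 11 fell, against 22.3% and 20.9% of all genes, with a median of -0.11. The number that fell was smaller without empty-vector replicate 2. Robo1, a Slit receptor, rose to 53.7 and 52.8 CPM with C/EBPβ, against 29.6 and 26.7 CPM with the empty vector, and Ntng2, a membrane-anchored netrin, rose to 2.20 and 2.35 CPM, against 0.292 and 0.257 CPM. Ntn4, a secreted netrin of basement membranes, fell to 15.7 and 15.9 CPM, against 42.7 and 44.3 CPM, and Srgap1, a GTPase-activating protein downstream of Robo, fell to 2.12 and 3.09 CPM, against 17.1 and 18.4 CPM. These 4 had the smallest p of the list in each direction, so groups lying further apart than replicates follow from that choice.

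In the authors' deposited table, 10 of the 48 genes were higher and 16 lower at an adjusted p of 0.05. The share of all rows of that table that passed was not counted, so these numbers have no background. Other libraries may have entered the authors' deposited table: relative to its median, the ratio of its mean signal to the mean CPM of these 4 libraries ran from 0.564 for Plxnb3 to 2.75 for Plxna4 over 43 genes with at least 1 CPM, where the same libraries would give a near-constant ratio. The log2 fold changes of the authors' deposited table had the same sign as those above for 44 of the 45 tested genes, Sema3b being the exception, and 24 genes were called in the same direction in both. Plxnd1 and Efnb2 passed only in the authors' deposited table, with log2 fold changes there of 0.55 and -0.49. Efna4, Efnb1 and Plxna3 passed only in the test on the counts.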

How the data were processed

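Stranded mRNA sequencing, per the labels' protocols, gave 4 libraries, 2 for each group. For each library the authors deposited raw counts of fragments per gene, made per the submitters' processing notes with HISAT2 2.0.4 and featureCounts 1.4.6 on GRCm38. The featureCounts version per the file headers is 1.5.1, run on the reverse strand of paired fragments with GENCODE M12. The authors' comparison table gives for each gene, per the file headers, a mean signal, log2 fold change, log2 standard error, score and p-value before and after adjustment. DESeq2 is listed among the submitters' tools, and the sources used here do not give which libraries entered that table.

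Counts were filtered with edgeR's filterByExpr (minimum count 10, minimum total 15), scaled by TMM and compared with edgeR 4.0.16 in R 4.3.3 (glmQLFit, robust, and glmQLFTest, 2-sided, Benjamini-Hochberg over 15886 genes, threshold 0.05). The SE of a log2 fold change was derived from its F statistic. CPM used TMM-scaled library sizes, and FPKM also the gene length of the count files. The smallest 2-sided p of an exact permutation test is 0.333 here, so summed levels were not tested. Replicates differed beyond counting noise (chi-square per degree of freedom 28.5 with C/EBPβ and 20.0 with the empty vector).

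The genes and the lists of other genes were chosen with earlier results of these data known. Library values are given for genes of the families that passed with an absolute log2 fold change of at least 1 or a mean of at least 20 CPM, for the most abundant of each family by FPKM, for the 2 genes with the smallest p in each direction of each pathway list and for the 2 most abundant of each marker list, of which 1 gene is not reported here; other values printed per library were chosen after they were seen, to show overlap between groups. Alternatives were other scalings and filters, DESeq2 1.42.0, limma-voom (limma 3.58.1), a replicate block and each library left out. Sequence sharing was measured in GENCODE M21 transcripts. Among the 48 genes, only Epha1, Plxna2 and Sema3a shared over 1% of their 50-base windows with another gene (2.60%, 1.53% and 1.18%). The nearest protein-coding neighbours were taken from the authors' table.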

Additional observations from a re-analysis of the deposited data

How the results depend on the processing

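Of the 27 guidance genes called, 19 kept their direction and call under each alternative run, and 8 lost the call under at least 1 (Sema4c, Nrp2, Efna4, Ephb4, Sema6a, Sema4g, Plxna3 and Efnb1). All 8 lost it without empty-vector replicate 2. Of the 18 not called, 8 passed under at least 1 alternative. With 1 library left out, the number that rose ran between 6 and 12 and the number that fell between 13 and 18. Over all genes, those that rose ran between 2169 and 3712, against 3540 with every library, and those that fell between 1836 and 3702, against 3324, with both lowest values reached without empty-vector replicate 2. A group left with 1 library was assumed to vary like the other. The log2 fold change of Sema3d ran between -0.27 and 0.47 when 1 library was left out. Library sizes alone, without TMM, shifted the median log2 fold change of all genes to 0.07, against 0.01, and gave 12 guidance genes higher and 14 lower, and 58.0% of all calls higher, against 51.6%. DESeq2 gave 10 and 16, and 3019 and 2960 over all genes. For limma-voom they were 12 and 17, and 3548 and 3338 over all genes. With the replicate block the counts were 13 and 18, and 3983 and 3693 over all genes. The numbers were not taken to pair libraries, since the labels give them no shared culture and deviations of equal numbers correlated at 0.147 over all genes with only 2 pairs. Among context genes named, Myh3, Ckm and Erbb3 lost their calls without either empty-vector library and without the low-count filter. Tnnt3 lost its call without either empty-vector library. Egfl7 lost its call without either empty-vector library, without C/EBPβ replicate 1 and in DESeq2. Tek lost its call without either empty-vector library, without C/EBPβ replicate 2 and in DESeq2, while Gsn passed under 7 alternatives. Genes under about 1 CPM were limited by counting error.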
